A study of Homo sapiens with 6 samples.

Results

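The genes described here encode 41 subunits of the ATP-dependent chromatin remodelling complexes of the SWI/SNF (BAF and PBAF), ISWI, and INO80, SRCAP and EP400 families, with the related ATPases HELLS and ATRX. They were taken by gene symbol from a table of 32692 human genes, and all 41 had a row of their own. The cells were DU145, an established line from a human prostate carcinoma, and their messenger RNA was sequenced. Group OTI-611 received 5 µM of OTI-611, a small molecule given by code only, and group DMSO received the solvent, both for 24 h. Each group held 3 libraries, numbered 1 to 3, and the labels name no genetic change in either group. The study's title names CHD1L, a remodeller that is not among these genes.

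Remodelling complexes use an ATPase motor to slide, evict or exchange nucleosomes, and so set which promoters and enhancers transcription factors can reach. SWI/SNF complexes open chromatin and are frequently mutated in carcinomas. ISWI complexes space nucleosomes evenly, and INO80, SRCAP and EP400 move or install the histone variant H2A.Z. Many subunits come in interchangeable paralogs, so that the makeup of a complex can differ with which paralog a cell expresses.

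Values in 5 libraries are RPKM, read counts scaled by gene length and library depth. Library DMSO 1 stands apart. Its values have no decimals and were taken as RPKM that had been cut to whole numbers. In genes from 1 to 50 RPKM, DMSO 1 minus the mean of the other 2 DMSO libraries averaged -0.53 to -0.51 RPKM, depending on the level. Results that lose their call without it are given both ways. Steps between low values gave estimated depths of 37200000 to 37800000 reads for the OTI-611 libraries, against 30700000 reads for DMSO 2 and 32300000 reads for DMSO 3. The epithelial markers KRT8, KRT18, KRT19, EPCAM and CDH1 summed to 471 to 517 RPKM with OTI-611, against 503 to 529 RPKM with DMSO. The sum hides changes in its members: CDH1 (E-cadherin) had a log2 fold change of -1.09 (limma adjusted p = 7.11e-06), KRT8 of -0.50 (limma adjusted p = 1.07e-06) and KRT19 of 0.13 (limma adjusted p = 0.028, and 0.105 without DMSO 1), while KRT18 and EPCAM did not pass. Their part in the results was not tested. Leukocyte, endothelial and fibroblast markers summed to at most 0.19 RPKM with OTI-611 and at most 0.745 RPKM with DMSO per list.

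Of the 41 genes, 37 averaged at least 1 RPKM over the 6 libraries and were tested, with limma on log2(value + 1) and p-values adjusted over all genes tested (threshold 0.05). With OTI-611, 10 rose, 18 fell and the other 9 missed the threshold. The 28 calls are 75.7% of the subunits tested, beside 65.2% of all 11978 genes tested, of which 27.8% were higher and 37.3% lower. The median log2 fold change of the subunits was -0.08, beside -0.05 for all genes, and 6 of the 37 (16.2%) changed by at least 0.5 on the log2 scale, beside 23.2% of all genes. The subunits' share of calls lay near that of all genes, and they went both ways and moved mostly by less than 0.5. The split depended on scaling: with libraries rescaled by their median log ratio, where the median of all genes was 0.00, 13 rose and 13 fell, and after quantile normalization 14 rose and 16 fell. SMARCE1 and BRD9, which were not called, changed sign under the median rescaling. Without DMSO 1, 9 rose and 16 fell, beside 68.2% of all genes called (26.3% higher and 41.9% lower). Since RNA was measured in bulk, less RNA per cell and fewer cells expressing a gene cannot be told apart.

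**Figure D1:**
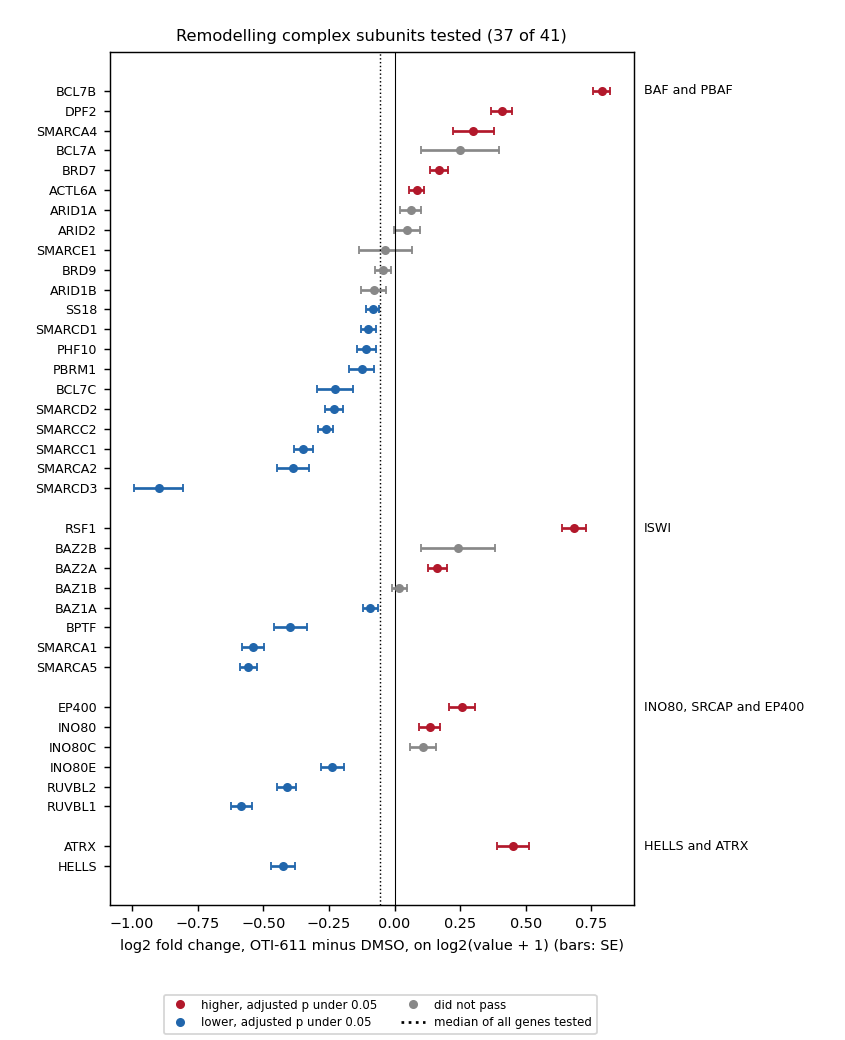
Log2 fold change (OTI-611 minus DMSO, log2(value + 1) scale, bars SE) of the 37 subunits tested, grouped by complex. BCL7B at 0.79 and RSF1 at 0.68 are the highest, SMARCD3 at -0.90 is the lowest, and every complex has calls in both directions.

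**Figure D2:**
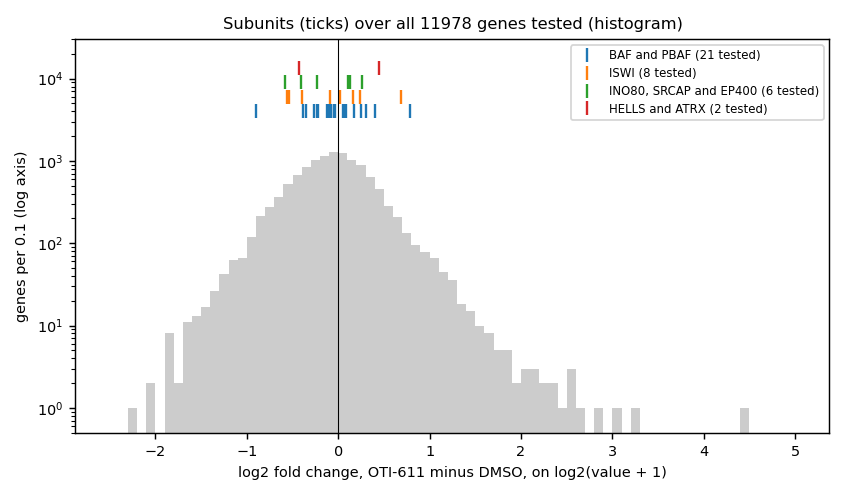
Histogram of the log2 fold change of all 11978 genes tested (vertical axis logarithmic), with 1 tick above it for each subunit tested. The ticks run from -0.90 to 0.79, inside the range of the other genes.

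The BAF and PBAF complexes are built around 1 of 2 ATPases, SMARCA4 (BRG1) or SMARCA2 (BRM). With OTI-611 they moved in opposite directions. SMARCA4 was at 7.55, 8.83 and 8.61 RPKM with OTI-611, against 6, 6.44 and 7.31 RPKM with DMSO. The lowest OTI-611 library lay just above the highest DMSO library, so the groups came close without overlapping. Its log2 fold change was 0.30 ± 0.078 (SE, limma adjusted p = 0.0076). With DMSO 1 left out it was 0.24 (limma adjusted p = 0.027). The call was lost when decimals were dropped in all libraries. SMARCA2 was at 5.60, 5.62 and 5.36 RPKM with OTI-611, against 7, 8.14 and 7.51 RPKM with DMSO, with no overlap. It fell by 0.39 ± 0.062 on the log2 scale (limma adjusted p = 4.29e-04).

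Core scaffold subunits fell or did not pass. Of the 7 measured, 6 were tested, 5 fell and none rose, and their median log2 fold change was -0.25, beside 37.3% of all genes called lower. Under the median rescaling 4 of the 6 fell. SMARCD3 (BAF60C), a subunit known for its role in heart and muscle gene programmes, had the largest fall of the 37 subunits tested. SMARCD3 was at 1.77, 1.44 and 1.41 RPKM with OTI-611, against 4, 3.53 and 3.68 RPKM with DMSO. All OTI-611 libraries lay below all DMSO libraries, and the mean fell by 58.7% (log2 fold change -0.90 ± 0.095, SE, limma adjusted p = 2.93e-05). Exons of other genes cover 13.8% of its exon bases. Its paralogs changed less: SMARCD2 averaged 31.6 ± 0.94 RPKM with OTI-611 and 37.2 ± 1.0 RPKM with DMSO (SD, n = 3 each; log2 fold change -0.23), and SMARCD1 36.7 ± 0.63 RPKM with OTI-611 and 39.4 ± 0.86 RPKM with DMSO (-0.10). The SMARCD1 call was lost under the median rescaling and without DMSO 2.

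The scaffold paralogs SMARCC1 (BAF155) and SMARCC2 (BAF170), on which the complex assembles, fell together. SMARCC1 was at 23.3, 23.3 and 22.0 RPKM with OTI-611, against 29, 30.3 and 28.7 RPKM with DMSO, a log2 fold change of -0.35 ± 0.037 (SE, limma adjusted p = 2.93e-05). SMARCC2 averaged 28.4 ± 0.55 RPKM with OTI-611 and 34.3 ± 0.41 RPKM with DMSO (SD, n = 3 each; log2 fold change -0.26, limma adjusted p = 4.33e-05). Neither gene's groups overlapped. SMARCE1 (BAF57), which carries an HMG domain, averaged 2.25 ± 0.15 RPKM with OTI-611 and 2.34 ± 0.30 RPKM with DMSO (SD, n = 3 each) and did not pass (limma adjusted p = 0.78). Exons of other genes cover 19.8% of its exon bases.

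SMARCB1 (BAF47), the subunit lost in malignant rhabdoid tumours, was listed at very low values in every library and was not tested. SMARCB1 was at 0.0723, 0.0722 and 0.0918 RPKM with OTI-611, against 0, 0.0251 and 0.0237 RPKM with DMSO. These values correspond to an estimated 44 to 57 reads with OTI-611 and to 13 reads in each of DMSO 2 and DMSO 3. In the fit that kept genes of any level, the SMARCB1 log2 difference was 0.09 (limma adjusted p = 0.058), and 17.7% of its exon bases lie under exons of another gene. That fit includes the 0 of DMSO 1, where a value under 1 RPKM is cut to 0. How the authors counted reads is not given in the sources used here, so whether the low values of SMARCB1, SRCAP, INO80B and INO80D stand for low transcript levels is not known.

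The BCL7 proteins are small subunits of BAF and PBAF, and their genes did not move together. BCL7B was at 58.2, 60.3 and 61.6 RPKM with OTI-611, against 35, 34.5 and 33.5 RPKM with DMSO. The groups were far apart, with a mean 1.75-fold higher with OTI-611, and the log2 fold change of 0.79 ± 0.031 (SE, limma adjusted p = 8.76e-08) was the highest of the subunits tested. BCL7C was at 7.63, 7.59 and 7.45 RPKM with OTI-611, against 8, 9.86 and 9.26 RPKM with DMSO, a log2 fold change of -0.23 (limma adjusted p = 0.016). The BCL7C call was lost with no filter on low values, without DMSO 2 and without DMSO 3. BCL7A, at 1.80 ± 0.37 RPKM with OTI-611 and 1.36 ± 0.32 RPKM with DMSO (SD, n = 3 each), did not pass (limma adjusted p = 0.16), and its groups overlapped. After quantile normalization BCL7A passed as higher, with a log2 fold change of 0.36. ACTL6A (BAF53A), an actin-related subunit, averaged 99.1 ± 1.4 RPKM with OTI-611 and 93.4 ± 3.1 RPKM with DMSO (SD, n = 3 each; log2 fold change 0.08, limma adjusted p = 0.030), and the limma adjusted p was 0.11 without DMSO 1. The ACTL6A call was also lost without OTI-611 2 and without DMSO 3.

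Among subunits that define 1 form of the complex, DPF2 changed most. DPF2 (BAF45D), a histone reader of canonical BAF, was at 26.8, 26.7 and 27.3 RPKM with OTI-611, against 19, 20.2 and 21.0 RPKM with DMSO. It was higher in all OTI-611 libraries, by 0.41 ± 0.040 on the log2 scale (SE, limma adjusted p = 1.82e-05). The ARID subunits that guide the complex to DNA did not pass. ARID1A averaged 15.8 ± 0.66 RPKM with OTI-611 and 15.1 ± 0.095 RPKM with DMSO, ARID1B averaged 6.60 ± 0.067 RPKM with OTI-611 and 7.04 ± 0.098 RPKM with DMSO, and ARID2 of PBAF averaged 8.67 ± 0.22 RPKM with OTI-611 and 8.36 ± 0.37 RPKM with DMSO (SD, n = 3 each). Their log2 fold changes were 0.06, -0.08 and 0.05, with limma adjusted p of 0.20, 0.17 and 0.42. Under the median rescaling ARID1A passed as higher, with a log2 fold change of 0.12. After quantile normalization ARID2 passed as higher, also with 0.12.

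SS18, the subunit fused in synovial sarcoma, averaged 58.9 ± 1.1 RPKM with OTI-611 and 62.5 ± 0.42 RPKM with DMSO (SD, n = 3 each; log2 fold change -0.08, limma adjusted p = 0.017). The SS18 call was lost under the median rescaling, without OTI-611 2 and without OTI-611 3. Of the PBAF subunits, BRD7, a bromodomain protein, rose to 25.2 ± 0.81 RPKM with OTI-611, against 22.3 ± 0.29 RPKM with DMSO (log2 fold change 0.17, limma adjusted p = 0.0019), although exons of other genes cover 42.4% of its exon bases. PBRM1 (BAF180) and the reader PHF10 (BAF45A) were lower by narrow margins. PBRM1 averaged 9.22 ± 0.45 RPKM with OTI-611 and 10.1 ± 0.22 RPKM with DMSO (log2 fold change -0.12, limma adjusted p = 0.044), and PHF10 averaged 13.6 ± 0.17 RPKM with OTI-611 and 14.8 ± 0.29 RPKM with DMSO (-0.11, limma adjusted p = 0.025). Without DMSO 1 the limma adjusted p of both was 0.052. PBRM1 kept its call only without OTI-611 1 when libraries were left out in turn, and PHF10 only without OTI-611 1 and without DMSO 3. Both calls were also lost after quantile normalization, with log2 fold changes of -0.07 for each, and under the median rescaling, with -0.07 for PBRM1 and -0.05 for PHF10. PBRM1 was lost with no filter on low values as well. BRD9, the bromodomain subunit of non-canonical BAF, averaged 28.4 ± 0.59 RPKM with OTI-611 and 29.3 ± 0.67 RPKM with DMSO and did not pass (limma adjusted p = 0.25).

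**Figure D3:**
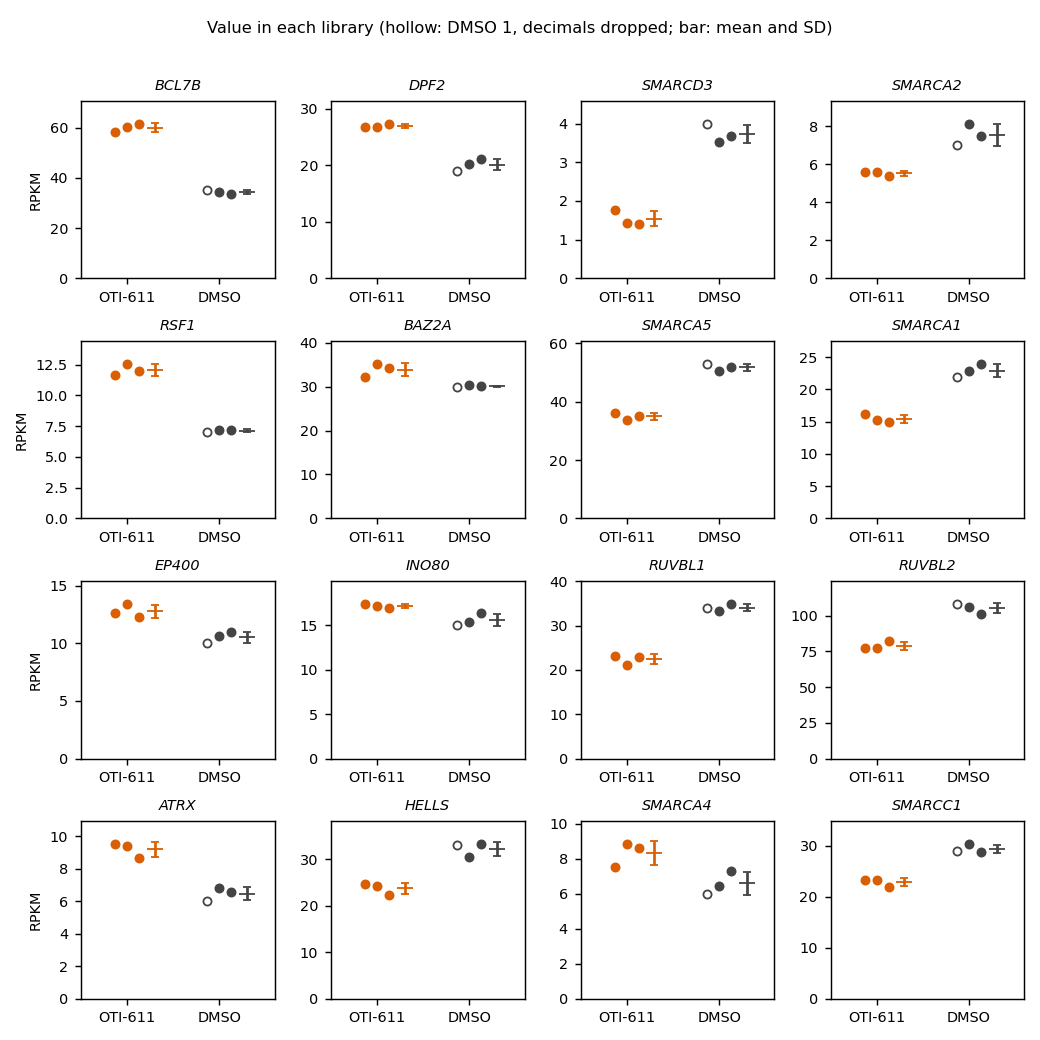
RPKM in each library for 16 subunits, OTI-611 on the left and DMSO on the right, with DMSO 1 hollow and bars for mean and SD. In BCL7B and RSF1 all OTI-611 points lie far above the DMSO points, in SMARCA5, SMARCA1, RUVBL1 and RUVBL2 far below, and in SMARCA4 the groups nearly touch.

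Both ISWI motor genes fell, by almost the same proportion. SMARCA5 (SNF2H), the ATPase of most ISWI complexes, was at 36.1, 33.7 and 35.1 RPKM with OTI-611, against 53, 50.6 and 52.0 RPKM with DMSO. The mean fell by 32.6% with no overlap (log2 fold change -0.56 ± 0.033, SE, limma adjusted p = 8.41e-07). SMARCA1 (SNF2L), the alternative motor, was at 16.2, 15.2 and 15.0 RPKM with OTI-611, against 22, 22.8 and 24.0 RPKM with DMSO. Its mean also fell by 32.6% (log2 fold change -0.54 ± 0.044, SE, limma adjusted p = 5.23e-06). In SMARCA5, 13.5% of the exon bases lie under other genes, including the antisense gene SMARCA5-AS1, whereas SMARCA1 shares none.

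The partners that join these motors went in different directions. RSF1, which with SMARCA5 forms the RSF complex, was at 11.7, 12.6 and 12.0 RPKM with OTI-611, against 7, 7.22 and 7.16 RPKM with DMSO. The libraries of each group lay close together, and the mean was 1.69-fold higher with OTI-611 (log2 fold change 0.68 ± 0.045, SE, limma adjusted p = 1.54e-06). BAZ2A (TIP5), the NoRC subunit that directs SMARCA5 to ribosomal DNA, was at 32.2, 35.2 and 34.2 RPKM with OTI-611, against 30, 30.3 and 30.1 RPKM with DMSO (log2 fold change 0.16, limma adjusted p = 0.0032). BPTF, the large subunit of NURF that binds methylated histone H3, fell. BPTF was at 7.94, 8.06 and 6.91 RPKM with OTI-611, against 10, 10.3 and 10.8 RPKM with DMSO (log2 fold change -0.40, limma adjusted p = 3.66e-04), with no overlap.

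BAZ1A (ACF1), the partner in ACF and CHRAC, averaged 61.6 ± 0.70 RPKM with OTI-611 and 65.7 ± 1.9 RPKM with DMSO (SD, n = 3 each; log2 fold change -0.09, limma adjusted p = 0.019). That call was lost under the median rescaling, without OTI-611 3 and without DMSO 2. BAZ1B (WSTF), the partner in WICH, averaged 63.0 ± 1.6 RPKM with OTI-611 and 62.2 ± 0.81 RPKM with DMSO (SD, n = 3 each), a log2 difference of 0.02 with overlapping groups (limma adjusted p = 0.59). BAZ2B, at 1.89 ± 0.15 RPKM with OTI-611 and 1.47 ± 0.41 RPKM with DMSO (SD, n = 3 each), did not pass (limma adjusted p = 0.16). It passed as higher under the median rescaling and after quantile normalization. The BAZ2B log2 fold change of 0.24 rested largely on DMSO 1. Without DMSO 1 it was 0.0955 (limma adjusted p = 0.325). With decimals dropped in all libraries each BAZ2B value becomes 1, so that its log2 fold change of 0.0 there was fixed in advance. Of the 8 ISWI genes, 2 rose, 4 fell and 2 did not pass, so that 6 of 8 were called, beside 65.2% of all genes. Without DMSO 1 the counts were again 2 and 4, beside 68.2% of all genes called, and under the median rescaling 3 rose and 3 fell.

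In the INO80, SRCAP and EP400 group, the AAA+ helicases that all these complexes share fell. RUVBL1 was at 23.2, 21.1 and 22.8 RPKM with OTI-611, against 34, 33.2 and 34.8 RPKM with DMSO. The highest OTI-611 library lay well below the lowest DMSO library, and the mean fell by 34.2% (log2 fold change -0.58 ± 0.041, SE, limma adjusted p = 2.04e-06). RUVBL2 was at 77.0, 77.0 and 82.1 RPKM with OTI-611, against 108, 106 and 101 RPKM with DMSO. Its mean fell by 25.0% (log2 fold change -0.41 ± 0.035, SE, limma adjusted p = 7.00e-06), and its groups did not overlap either. RUVBL1 and RUVBL2 form a joint hetero-oligomeric ring that also serves in the assembly of other large complexes.

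Of the 3 motor genes, EP400 and INO80 passed as higher and SRCAP was not tested. EP400, the ATPase of the TIP60 complex, was at 12.6, 13.4 and 12.3 RPKM with OTI-611, against 10, 10.6 and 11.0 RPKM with DMSO (log2 fold change 0.26, limma adjusted p = 0.0014). INO80 was at 17.4, 17.2 and 16.9 RPKM with OTI-611, against 15, 15.3 and 16.3 RPKM with DMSO (log2 fold change 0.13, limma adjusted p = 0.016), and its call was lost without DMSO 2 and with decimals dropped in all libraries. SRCAP averaged under 1 RPKM over the 6 libraries and was not tested. SRCAP was at 1.10, 1.11 and 1.13 RPKM with OTI-611, against 0, 0.575 and 0.593 RPKM with DMSO. The OTI-611 mean was 1.91-fold that of DMSO 2 and DMSO 3, an estimated 562 to 584 reads beside 241 and 262. Fitted with no filter, the limma adjusted p was 0.13, and exons of other genes cover 76.0% of the SRCAP exon bases. That fit includes the 0 of DMSO 1, where a value under 1 RPKM is cut to 0. The p-value is therefore not evidence of no change in SRCAP.

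Of the INO80 accessory subunits, INO80E fell to 7.70 ± 0.058 RPKM with OTI-611, against 9.25 ± 0.25 RPKM with DMSO (SD, n = 3 each; log2 fold change -0.24, limma adjusted p = 0.0012). Exons of other genes cover 23.5% of the INO80E exon bases. INO80C averaged 9.04 ± 0.15 RPKM with OTI-611 and 8.31 ± 0.45 RPKM with DMSO and did not pass (limma adjusted p = 0.083), though it passed as higher under the median rescaling. It also passed as higher after quantile normalization and without DMSO 2. As listed, its groups did not overlap, which held for 31 of the 37 subunits tested (83.8%), beside 70.2% of all genes tested. The dropped decimals lower DMSO 1, which makes a rise without overlap easier. INO80C was listed at 8 RPKM in DMSO 1, and its lowest OTI-611 library was at 8.90 RPKM, so an overlap is possible. INO80B and INO80D lay under the minimum for testing. INO80D was at 0.165, 0.203 and 0.172 RPKM with OTI-611, against 0, 0.122 and 0.0960 RPKM with DMSO, and fitted with no filter its limma adjusted p was 0.17. INO80B was at 0.204, 0.249 and 0.314 RPKM with OTI-611, against 0, 0.386 and 0.444 RPKM with DMSO, an estimated 12 to 22 reads per library with decimals. The gene INO80B-WBP1, which reads through INO80B, covers 72.0% of its exon bases, and the fit with no filter gave a limma adjusted p of 0.98. For INO80D and INO80B that fit includes the 0 of DMSO 1, where a value under 1 RPKM is cut to 0. Neither p-value is therefore evidence of no change. Set against DMSO 2 and DMSO 3 only, the OTI-611 mean was 1.65-fold in INO80D and 0.62-fold in INO80B.

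The ATPases outside these complexes moved in opposite directions. ATRX, which deposits histone H3.3 at repeats and telomeres, was at 9.50, 9.40 and 8.65 RPKM with OTI-611, against 6, 6.78 and 6.58 RPKM with DMSO. It was higher in all OTI-611 libraries (log2 fold change 0.45 ± 0.059, SE, limma adjusted p = 1.26e-04). HELLS (LSH), which is needed for DNA methylation of repeats and is high in dividing cells, was at 24.6, 24.3 and 22.4 RPKM with OTI-611, against 33, 30.4 and 33.2 RPKM with DMSO. Its log2 fold change was -0.42 ± 0.047 (SE, limma adjusted p = 3.89e-05). Of their partners, CDCA7, which activates HELLS, fell to 25.1 ± 1.2 RPKM with OTI-611, against 33.2 ± 0.73 RPKM with DMSO (SD, n = 3 each; log2 fold change -0.39, limma adjusted p = 2.25e-05). DAXX, the histone chaperone that works with ATRX, lay under the minimum for testing.

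The share of 1 gene in the summed RPKM of its family was computed in each library for 10 families of related subunits. Most hold alternative paralogs, whereas RUVBL1 and RUVBL2 act together in a ring, and BRD7 and BRD9 belong to different forms of SWI/SNF. With 3 libraries against 3, the exact two-sided permutation test cannot give a p under 0.1. The shares did not overlap between the groups in 8 of 10 families, each with p = 0.1, the smallest that the exact test allows, and 0.125 after Benjamini-Hochberg adjustment over the 10 families. Over single genes, the levels did not overlap in 70.2% of all genes tested, and no such share was computed over other gene pairs, so that nothing is read from the count of families. SMARCA2 made up 42.6%, 38.9% and 38.4% of the 2 SWI/SNF ATPase transcripts with OTI-611, against 53.8%, 55.8% and 50.7% with DMSO. Its mean share was thus 40.0 ± 2.3% with OTI-611 and 53.4 ± 2.6% with DMSO (SD, n = 3 each), so that SMARCA4 was the more abundant of the 2 per length with OTI-611 and SMARCA2 slightly so with DMSO. Their sum differed little, at 13.9 ± 0.66 RPKM with OTI-611 and 14.1 ± 0.99 RPKM with DMSO.

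BCL7C held 11.3%, 10.8% and 10.5% of the BCL7 sum with OTI-611, against 18.2%, 21.4% and 21.0% with DMSO. The sum itself was higher, at 69.4 ± 1.8 RPKM with OTI-611 and 44.7 ± 1.1 RPKM with DMSO (SD, n = 3 each), mostly BCL7B in both groups. BRD9 held 53.0 ± 0.89% of the BRD7 and BRD9 sum with OTI-611 and 56.8 ± 0.67% with DMSO, and SMARCD1 held 52.6 ± 0.79% of its family with OTI-611 and 49.1 ± 0.45% with DMSO. The other shares without overlap moved by under 3 percentage points, those of ARID1B, SMARCC1, BAZ1A and RUVBL1. In the ISWI motors the share hardly moved: SMARCA5 held 69.3 ± 0.63% with OTI-611 and 69.4 ± 1.2% with DMSO (SD, n = 3 each; exact permutation p = 0.9), while the sum fell to 50.4 ± 1.7 RPKM with OTI-611, against 74.8 ± 1.3 RPKM with DMSO. BAZ2A held 94.7 ± 0.50% of the BAZ2 sum with OTI-611 and 95.4 ± 1.2% with DMSO (exact permutation p = 0.6).

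**Figure D4:**
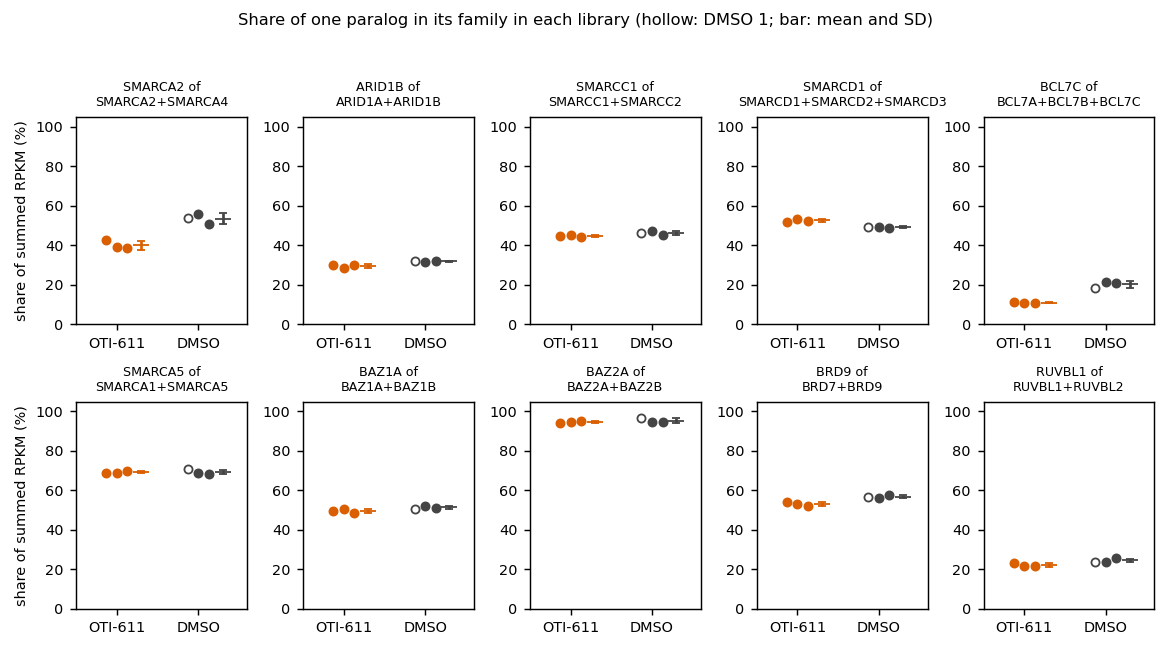
Share of 1 paralog in the summed RPKM of its family (%) in each library, OTI-611 on the left and DMSO on the right, DMSO 1 hollow, bars for mean and SD. SMARCA2 and BCL7C show the widest gaps between the groups, and SMARCA5 and BAZ2A overlap.

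Other subunits of the same complexes, 39 genes taken from textbook knowledge of the complexes, were read from the same fit. Of 32 tested, 13 rose, 11 fell and the other 8 missed the threshold, beside 27.8% higher and 37.3% lower of all genes. Their median log2 fold change was 0.05, beside -0.05 for all genes. Under the median rescaling 15 rose and 6 fell, beside 3986 higher and 3978 lower of all 11978 genes. In SRCAP and EP400, 10 of 16 partners rose and 3 fell, with a median of 0.16, beside 27.8% higher and 37.3% lower of all genes. VPS72 (YL1), the chaperone of H2A.Z in both complexes, was at 91.7, 90.3 and 91.6 RPKM with OTI-611, against 66, 65.1 and 66.6 RPKM with DMSO (log2 fold change 0.46, limma adjusted p = 3.38e-07), with 40.5% of its exon bases under other genes. MRGBP, a small TIP60 subunit, rose to 31.4 ± 0.80 RPKM with OTI-611, against 22.8 ± 0.85 RPKM with DMSO (SD, n = 3 each; log2 fold change 0.45), with 16.3% of its exon bases under another gene. MORF4L2 (MRGX), a relative of the chromodomain subunit MORF4L1, fell to 129 ± 1.7 RPKM with OTI-611, against 172 ± 3.7 RPKM with DMSO (log2 fold change -0.41).

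Chosen after their values were seen, the acetyltransferase KAT5 (TIP60) and the partner genes EPC1 and DMAP1 had log2 fold changes of 0.44, 0.62 and 0.58. ZNHIT1 of SRCAP fell by 0.38 on the same scale. Each of these 4 passed the test with and without DMSO 1. On the same list EPC2 did not pass (log2 fold change 0.10, limma adjusted p = 0.082), though it passed as higher under the median rescaling. MORF4L1 fell (-0.10, limma adjusted p = 0.0026), a call lost under the median rescaling. KAT5 was at 10.6, 12.3 and 12.3 RPKM with OTI-611, against 8, 8.47 and 8.58 RPKM with DMSO, with 38.6% of its exon bases under other genes. The EP400 motor gene and 10 of 16 SRCAP and EP400 partner genes were thus higher with OTI-611, while the helicases RUVBL1 and RUVBL2 of the same complex were lower. All 5 ISWI partners tested fell, with a median of -0.17, beside 37.3% of all genes called lower. Without DMSO 1, 4 of the 5 fell, HMGXB4 being lost, beside 41.9% of all genes. The largest of these falls was that of the histone-binding RBBP4, at 17.0 ± 0.38 RPKM with OTI-611 and 23.2 ± 0.24 RPKM with DMSO (SD, n = 3 each; log2 fold change -0.43, limma adjusted p = 4.02e-06). Exons of another gene cover 18.0% of the RBBP4 exon bases. POLE3 and CHRAC1, histone-fold subunits of CHRAC, fell by 0.19 and 0.17. Under the median rescaling 2 of the 5 passed, RBBP4 and POLE3. CECR2, also on the ISWI list, lay under the minimum for testing and went the other way. It was at 0.908, 0.955 and 0.905 RPKM with OTI-611, against 0, 0.694 and 0.550 RPKM with DMSO.

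Of 6 INO80 partners tested, 2 rose and 2 fell, beside 27.8% higher and 37.3% lower of all genes. YY1, the DNA-binding subunit of INO80, rose to 51.1 ± 0.98 RPKM with OTI-611, against 43.2 ± 0.48 RPKM with DMSO (SD, n = 3 each; log2 fold change 0.24, limma adjusted p = 4.60e-05). The actin-related ACTR8 rose by 0.29 on the log2 scale, and UCHL5, a deubiquitinase, fell by 0.20. Of 4 BAF partners tested, BICRAL, a subunit of non-canonical BAF, rose by 0.33 and 3 did not pass, beside 65.2% of all genes called. Without DMSO 1, DPF1 also passed as lower, beside 68.2% of all genes called.

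**Figure D5:**
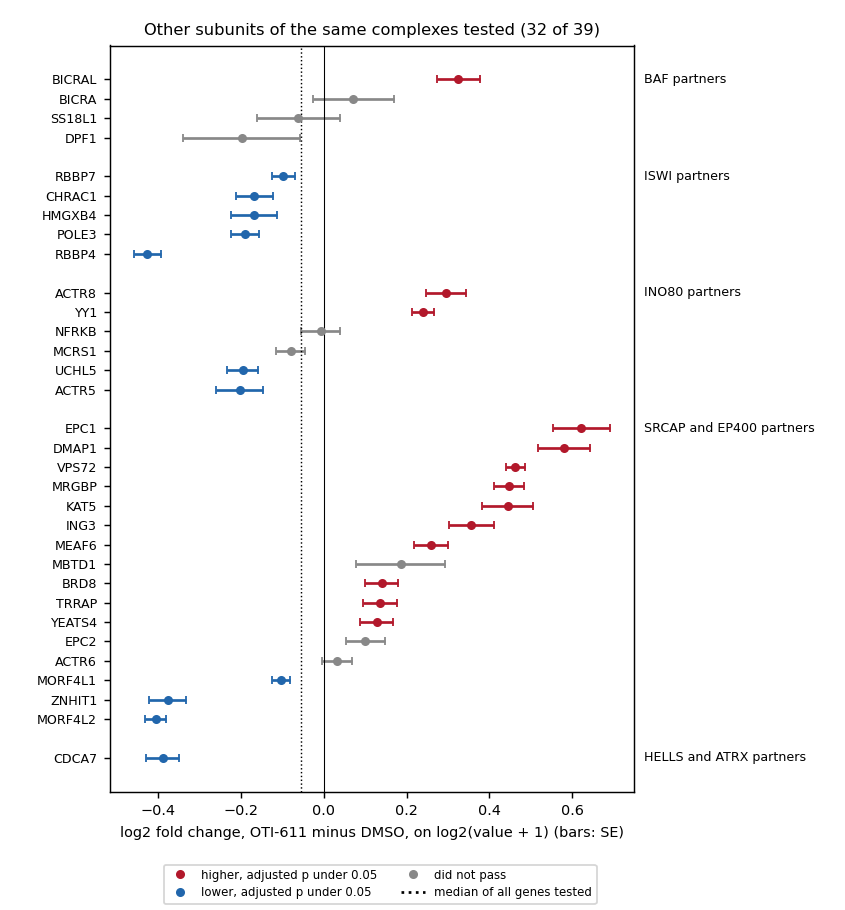
Log2 fold change (OTI-611 minus DMSO, log2(value + 1) scale, bars SE) of the 32 other subunits tested, grouped by complex. Of the 16 SRCAP and EP400 partners, 10 are called higher, and all 5 ISWI partners are called lower.

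Promoter sequences from RefSeq (GRCh38.p14), 250 bases before to 50 after the annotated start, were found for 34 of the 41 subunits. They are shown for BCL7B, the subunit with the highest rise, and for RUVBL1 and RUVBL2, which fell together. Capitals mark matches to the motifs searched, on either strand, read 5′ to 3′ along each gene.
BCL7B, chr7:73557187-73557486, minus strand: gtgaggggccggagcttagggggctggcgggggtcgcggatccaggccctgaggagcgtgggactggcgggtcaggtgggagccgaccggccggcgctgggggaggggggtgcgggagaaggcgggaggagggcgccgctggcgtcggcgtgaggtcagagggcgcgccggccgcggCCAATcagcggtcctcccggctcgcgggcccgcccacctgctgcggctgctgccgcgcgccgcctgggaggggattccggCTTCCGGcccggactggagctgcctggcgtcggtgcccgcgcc
RUVBL1, chr3:128153865-128154164, minus strand: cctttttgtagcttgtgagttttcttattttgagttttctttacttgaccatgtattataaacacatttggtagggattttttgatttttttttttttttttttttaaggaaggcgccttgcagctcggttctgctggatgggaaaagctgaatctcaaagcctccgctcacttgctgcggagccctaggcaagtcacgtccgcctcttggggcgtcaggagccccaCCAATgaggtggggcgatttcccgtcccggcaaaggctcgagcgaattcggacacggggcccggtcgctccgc
RUVBL2, chr19:48993637-48993936, plus strand: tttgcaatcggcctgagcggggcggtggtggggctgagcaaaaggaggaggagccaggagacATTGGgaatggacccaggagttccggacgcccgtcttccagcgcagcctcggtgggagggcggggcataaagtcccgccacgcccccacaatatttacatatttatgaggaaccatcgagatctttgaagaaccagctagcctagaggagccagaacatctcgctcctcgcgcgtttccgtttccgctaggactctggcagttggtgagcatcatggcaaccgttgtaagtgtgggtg
In BCL7B the capitals are a CCAAT box, the site of NF-Y, and the ETS core CCGGAAG on the reverse strand. RUVBL1 and RUVBL2 each hold a CCAAT box, on the reverse strand in RUVBL2.

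The CCAAT box stood in 11 of the 34 promoters, 2 of 8 of subunits that rose and 5 of 14 of those that fell, beside 34.6% of 34943 promoters of the same length. The ETS core stood in 5 of 34, beside 10.2%, the YY1 core AAGATGG in 3, beside 5.85%, and the E-box CACGTG in 1, beside 7.23%. None of the 34 held the FOXO core GTAAACA (3.42% of all promoters), the C/EBP-ATF site TGATGNAA (3.62%), the CRE core TGACGTC (3.43%) or the NRF1 core GCGCATG (4.40%), searched on both strands with overlaps allowed. A match in such a window is a description of its letters, and no binding was measured here.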

How the data were processed

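RNA of DU145 cells was measured in 3 libraries with OTI-611 and 3 with DMSO, grouped by the labels. Per the labels' protocols, Geo-seq was used to amplify the messenger RNA, and a TruePrep kit to build libraries. Tools listed without roles in the submitters' processing notes are TopHat2 2.0.9, HTSeq, Cufflinks 2.1.1, FastQC and CASAVA 1.7, with the mouse build mm10, whereas all 32692 gene IDs are human, so the build used is not established. The authors deposited 5 columns of decimals, read as RPKM from steps in their low values (FPKM is not told apart), and 1 column of whole numbers, DMSO 1, listed as a score for want of a stated unit and used as RPKM with its decimals dropped. Whether each library had a culture of its own is not given in the labels, so the spread behind each p-value may be technical, and amplified reads are not molecules.

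Genes with a mean of at least 1 were fitted as log2(value + 1) with limma 3.58.1 in R 4.3.3 (group as the only term, empirical Bayes with trend, two-sided, Benjamini-Hochberg over all genes, threshold 0.05), tested on simulated data. Fold changes on this scale understate the change of low genes. The 15 alternatives changed the pseudocount, filter, scaling, trend, block, handling of DMSO 1, or left out 1 library. Members, partner lists, families and tests were chosen with earlier results of these data known. All 41 members are reported, the 2 highest rises and 2 largest falls of each complex group and the paralogs in more detail, and up to 3 partners per list with the smallest p. Exon overlaps come from GENCODE release 29 on GRCh38, and estimated depths used its exon lengths, with low values whole within 0.05 in 74.3% to 75.5% of cases. The prostate marker list is not reported here. Shares were tested with the exact permutation test of scipy 1.17.1.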

Additional observations from a re-analysis of the deposited data

How the results depend on the processing

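Of the 28 subunit calls, 19 held under all 15 alternatives and none changed direction. The 9 that were lost under at least 1 were SMARCA4, ACTL6A and INO80 among the rises and SMARCD1, BCL7C, SS18, PBRM1, PHF10 and BAZ1A among the falls, and the cause was not tested. The number of subunits called ranged from 8 to 14 higher and from 13 to 18 lower. All genes called went from 3332 higher and 4473 lower to 4085 and 4115 after quantile normalization and to 3986 and 3978 after rescaling. The subunits' median log2 fold change of -0.08 was -0.0376 after quantile normalization, -0.0239 after rescaling and -0.0953 with 0.5 added to DMSO 1. With no filter it was -0.0345, taken over all 41 subunits instead of the 37 tested, whose own fold changes stayed the same. Leaving out each library gave -0.0831 to -0.0682. Same-numbered libraries did not deviate together (correlations 0.019, 0.000 and -0.058). This cannot show that they were unpaired, which the labels do not state, and the dropped decimals of DMSO 1 add to its deviations. With the replicate block PBRM1 lost its call (limma adjusted p = 0.068), 10 subunits rose, 17 fell, 3327 and 4429 of all genes were called higher and lower and the median was -0.08. SMARCB1 and INO80B had an estimated 12 to 57 reads per library with decimals, which limits what can be said of them.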
